A study of Mus musculus with 18 samples.

Results

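Messenger RNA levels of 10 macrophage marker genes were followed from ultraviolet-damaged skin to papilloma and carcinoma in 6 mice. The genes were Csf1r, Mrc1, Cd163, C1qa, C1qb, C1qc, Cd68, Lyz2, Arg1 and Spp1. They were chosen by name as textbook macrophage markers, and all 10 were found among the 14521 named genes of the deposited table. The mice were female littermates of SKH-1E, an outbred hairless strain, and all of them had been chronically irradiated with solar simulators that emit ultraviolet B. Each mouse gave 3 samples. They were nonlesional chronically UV-exposed skin (CHR), a papilloma (PAP) and, as the malignant lesion, a squamous cell carcinoma of the skin (SCC). Papillomas are epidermal outgrowths, and the authors treat them as precancerous. Mice were numbered 2, 3, 7, 8, 9 and 10, which gave 18 libraries and n = 6 in each group, with 15.4 to 21.0 M recovered reads per library. The labels give no age, every sample came from irradiated skin, and no unirradiated skin was analysed here. The samples were pieces of bulk tissue, and the lesions had been judged by histology to consist mostly of tumour cells.

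Macrophages are phagocytes that live in the dermis or arrive there as blood monocytes. Their survival depends on the receptor Csf1r, through which the ligands Csf1 and Il34 act. Macrophages at rest in skin carry the endocytic receptors Mrc1 (the mannose receptor, CD206) and Cd163 (the haptoglobin-haemoglobin receptor), and they secrete the 3 chains of C1q, which starts the classical complement pathway. Cd68, a glycoprotein of lysosomes, and Lyz2, a lysozyme, are shared by phagocytes in general, and Lyz2 is also made by neutrophils. Arg1, which hydrolyses arginine to ornithine and urea, and Spp1, the secreted phosphoprotein osteopontin, are known from macrophages activated by cytokines, wounds and tumours. Both are also made by other cells, keratinocytes among the sources of Arg1. In the text below, Csf1r, Mrc1, Cd163 and the C1q chains are called resident markers, Cd68 and Lyz2 general phagocyte markers, and Arg1 and Spp1 activated markers.

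The promoters of 5 markers are shown because their genes moved together or apart in the comparisons below, the first 4 being resident or general markers that fell in papilloma and the last an activated marker. Each line holds the 250 bases before a transcription start site in RefSeq, build GRCm38.p6, written from 5′ to 3′ on the strand of the gene. Capitals mark GAGGAA, a core bound by ETS factors such as PU.1, the factor that directs macrophage development, or its reverse complement TTCCTC.
Mrc1 (chr2:14229164-14229413, plus strand): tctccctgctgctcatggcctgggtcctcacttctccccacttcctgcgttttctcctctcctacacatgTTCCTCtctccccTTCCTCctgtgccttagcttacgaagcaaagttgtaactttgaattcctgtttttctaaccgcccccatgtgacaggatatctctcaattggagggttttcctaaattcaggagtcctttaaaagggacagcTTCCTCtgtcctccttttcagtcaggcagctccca
Cd163 (chr6:124304401-124304650, plus strand): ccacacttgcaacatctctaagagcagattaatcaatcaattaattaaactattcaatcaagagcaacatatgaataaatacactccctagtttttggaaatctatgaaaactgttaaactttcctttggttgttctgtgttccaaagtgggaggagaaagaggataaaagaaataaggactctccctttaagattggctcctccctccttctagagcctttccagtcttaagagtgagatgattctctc
C1qb (chr4:136886201-136886450, minus strand): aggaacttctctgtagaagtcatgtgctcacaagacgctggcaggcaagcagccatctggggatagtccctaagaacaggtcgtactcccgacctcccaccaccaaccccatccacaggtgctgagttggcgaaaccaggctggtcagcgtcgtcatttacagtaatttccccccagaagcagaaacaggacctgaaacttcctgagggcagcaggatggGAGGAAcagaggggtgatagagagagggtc
Cd68 (chr11:69666171-69666420, minus strand): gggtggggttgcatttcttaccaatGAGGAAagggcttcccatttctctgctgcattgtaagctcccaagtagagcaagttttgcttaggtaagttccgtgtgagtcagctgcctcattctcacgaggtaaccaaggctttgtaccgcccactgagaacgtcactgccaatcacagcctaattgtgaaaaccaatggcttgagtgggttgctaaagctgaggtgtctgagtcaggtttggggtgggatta
Spp1 (chr5:104434861-104435110, plus strand): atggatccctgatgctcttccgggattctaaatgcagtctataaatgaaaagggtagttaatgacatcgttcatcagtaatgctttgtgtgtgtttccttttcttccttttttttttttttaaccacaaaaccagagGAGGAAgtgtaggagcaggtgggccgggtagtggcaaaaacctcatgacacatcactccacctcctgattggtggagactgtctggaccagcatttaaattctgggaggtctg
RefSeq promoters of 7 of the 10 genes were counted here. Csf1r, C1qa and Arg1 were left out of this count and are named only, so that it does not cover all 10 markers. In the promoters of the 7 genes, GAGGAA on either strand was present for 5, namely Mrc1 with 3 copies and C1qb, C1qc, Cd68 and Spp1 with 1 copy each. The 7 genes had 8 windows, since Spp1 has a second start site in RefSeq. Its window (chr5:104435942-104436191), not printed here, held 0 copies. Of all 32851 promoters of this length, 23.3% held it. These matches are descriptions of the letters, and none was found in the windows of Cd163 and Lyz2.

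By GENCODE M21 for GRCm38, the C1q genes lie side by side on the minus strand of chromosome 4 within 18.7 kb, with C1qb (ENSMUSG00000036905.8) at chr4:136880129-136886187, C1qc (ENSMUSG00000036896.5) at chr4:136889804-136893065 and C1qa (ENSMUSG00000036887.5) at chr4:136895917-136898803. Csf1r (ENSMUSG00000024621.16) is at chr18:61100598-61132149 and Mrc1 (ENSMUSG00000026712.3) at chr2:14229392-14332057. Cd163 (ENSMUSG00000008845.9) is at chr6:124304656-124330527 and Cd68 (ENSMUSG00000018774.13) at chr11:69664213-69666153. Lyz2 (ENSMUSG00000069516.8) at chr10:117277331-117282321 and Arg1 (ENSMUSG00000019987.9) at chr10:24915221-24927484 share a chromosome, and Spp1 (ENSMUSG00000029304.14) is at chr5:104435118-104441050. All values are read counts per gene, not per transcript. Csf1r overlaps Hmgxb3, which is also in the table, so that reads in the shared part could have been counted for either gene or for neither.

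Levels are given as normalised read counts, which are recovered reads divided by the size factor of the library. Fold changes and their standard errors come from limma on log2(deposited value + 1), with the mouse as a block, and adjusted p-values are Benjamini-Hochberg values over all 14521 genes, with a threshold of 0.05. The log2 scale of the deposited values compresses low counts. In bulk tissue, fewer macrophages and less of an RNA in each macrophage cannot be told apart.

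In irradiated skin every marker was detected in all 6 mice, and levels per kilobase of exon could be put in order. Lyz2 was highest, at 17107 ± 4546 normalised reads per kb (mean ± SD, n = 6), and stood above the next gene in 6 of 6 mice. C1qa followed at 4509 ± 1140 per kb and Cd68 at 2736 ± 905 per kb. Cd68 and C1qb (2558 ± 662 per kb) did not differ beyond their spread, nor did Mrc1 (1810 ± 340 per kb) and C1qc (1790 ± 485 per kb), since the first of each pair was the higher one in 3 of 6 mice. Csf1r reached 1208 ± 241 per kb. The activated markers were near the end of the order, with Spp1 at 640 ± 313 per kb and Arg1 last at 179 ± 72.8 per kb, behind Cd163 at 243 ± 51.7 per kb.

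In papilloma the order began with Arg1, at 1246 ± 1150 per kb, followed by Lyz2 at 1094 ± 1122 per kb and C1qa at 940 ± 538 per kb. These 3 were not separated from one another, since Arg1 was above Lyz2 in 3 of 6 mice and Lyz2 above C1qa in 2 of 6. Cd163 came last at 7.22 ± 8.53 per kb. In carcinoma Lyz2 (7039 ± 6945 per kb) and C1qa (3112 ± 1991 per kb) led again. Spp1 (1819 ± 2747 per kb) and Arg1 (1678 ± 1115 per kb) came next, with Spp1 above Arg1 in 3 of 6 mice and Arg1 above C1qb (1599 ± 1028 per kb) in 3 of 6. The place of Spp1 was set by the carcinoma of mouse 7, at 7383 per kb, since the other 5 held 343 to 1175 per kb and Spp1 was below C1qb in all of those 5.

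**Figure D1:**
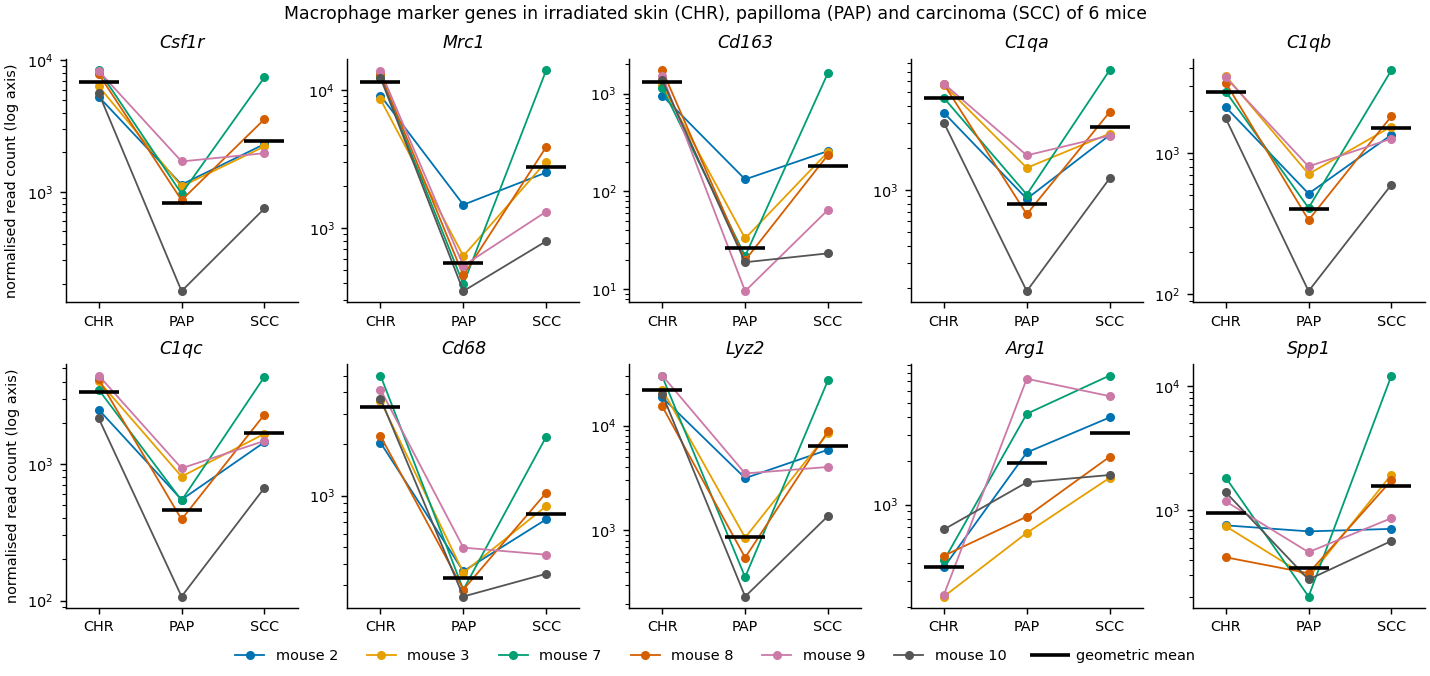
Normalised read counts (log axis, a separate scale in each panel) of the 10 markers in irradiated skin (CHR), papilloma (PAP) and carcinoma (SCC), with 1 coloured line per mouse and a black bar for the geometric mean of 6. The 8 resident and general markers drop from CHR to PAP in all 6 mice, Arg1 climbs in all 6, and the carcinoma of mouse 7 is the highest of the 6 carcinomas in every panel.

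The comparison of papilloma with irradiated skin asks how macrophage genes in the precancerous lesion differ from those in skin without a lesion. The resident and general markers were far lower in papilloma, whereas Arg1 was higher. Of the 10 markers, 8 fell and 1 rose, where 29.3% of all genes tested fell and 23.3% rose. The median log2 fold change of the 10 was -2.77, and that of all genes tested was 0.00. For all 8 genes that fell, the highest papilloma was below the lowest irradiated skin, which held for 19.3% of all genes in that direction.

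Csf1r ranged from 5287 to 8426 normalised reads in irradiated skin (median 7109) and from 175 to 1700 in papilloma (median 1031). The log2 fold change of -2.91 ± 0.33 (SE) had a limma adjusted p of 1.3e-05, and the geometric mean was 8.33-fold lower in papilloma. The level was lower in 6 of 6 mice and the groups did not overlap.

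The endocytic receptors fell further. Mrc1 went from 8539 to 13704 (median 12420) in irradiated skin to between 349 and 1473 (median 493) in papilloma, with a log2 fold change of -4.15 ± 0.48 (limma adjusted p = 1.48e-05) and a 20.3-fold lower geometric mean. Cd163 went from 954 to 1739 (median 1294) to between 9.58 and 133 (median 20.9), and the log2 fold change on the deposited scale was -3.89 ± 0.49 (limma adjusted p = 3.18e-05). On the scale of the recovered counts the within-mouse log2 difference of Cd163 was -5.55 ± 1.5 (SD, n = 6), a 46.9-fold lower geometric mean. In both genes the papilloma of mouse 2 was the highest of the papillomas, and without overlap with skin.

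The C1q chains fell together, although their shares shifted. C1qa ranged from 3017 to 5734 normalised reads in irradiated skin (median 5074) and from 190 to 1768 in papilloma (median 897), a log2 fold change of -2.37 ± 0.30 (limma adjusted p = 2.89e-05). C1qb and C1qc gave -2.50 ± 0.27 and -2.63 ± 0.27 (limma adjusted p = 1e-05 and 6.85e-06). Expressed as shares of the summed C1q reads, C1qa made up 42.2 to 50.5%, C1qb 21.7 to 26.9% and C1qc 26.5 to 32.6% over all 18 libraries, although the level of C1qa differed by a factor of 9.32 between papillomas alone. The share of C1qc was 30.5 to 32.6% in irradiated skin and 26.5 to 28.8% in papilloma, so that these ranges did not overlap, and that of C1qa was 42.2 to 43.8% against 44.9 to 50.5%.

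Among the general phagocyte markers, Cd68 ranged from 2031 to 5000 in irradiated skin (median 3619) and from 258 to 497 in papilloma (median 319), with a log2 fold change of -3.04 ± 0.31 (limma adjusted p = 5.89e-06). Lyz2 showed the largest decrease of the markers on the deposited scale, from between 15240 and 30007 (median 20956) to between 234 and 3492 (median 702), a log2 fold change of -4.48 ± 0.60 (limma adjusted p = 4.89e-05). The papillomas of mice 2 and 9 held over 3000 normalised reads of Lyz2, and the other 4 held at most 853. Lyz2 has a near-identical neighbour, Lyz1, with which reads could have been exchanged in counting. Lyz1 held 3.91 to 6.28% of the summed reads of both genes in all 18 libraries, and its own mean fell from 1290 ± 437 to 69.3 ± 70.9 normalised reads.

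Arg1 went the other way. It ranged from 235 to 677 in irradiated skin (median 394) and from 641 to 7291 in papilloma (median 1851). Arg1 rose in 6 of 6 mice, by 2.18 ± 0.41 on the log2 scale (limma adjusted p = 0.000763), and the geometric mean was 5.19-fold higher. The ranges touched, because the papilloma of mouse 3 (641) lay below the irradiated skin of mouse 10 (677). Spp1 ranged from 418 to 1835 (median 968) in irradiated skin and from 202 to 676 (median 299) in papilloma. Its log2 fold change of -1.30 ± 0.55 did not pass the test (limma adjusted p = 0.0633), although the level was lower in 6 of 6 papillomas than in the skin of the same mouse.

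**Figure D2:**
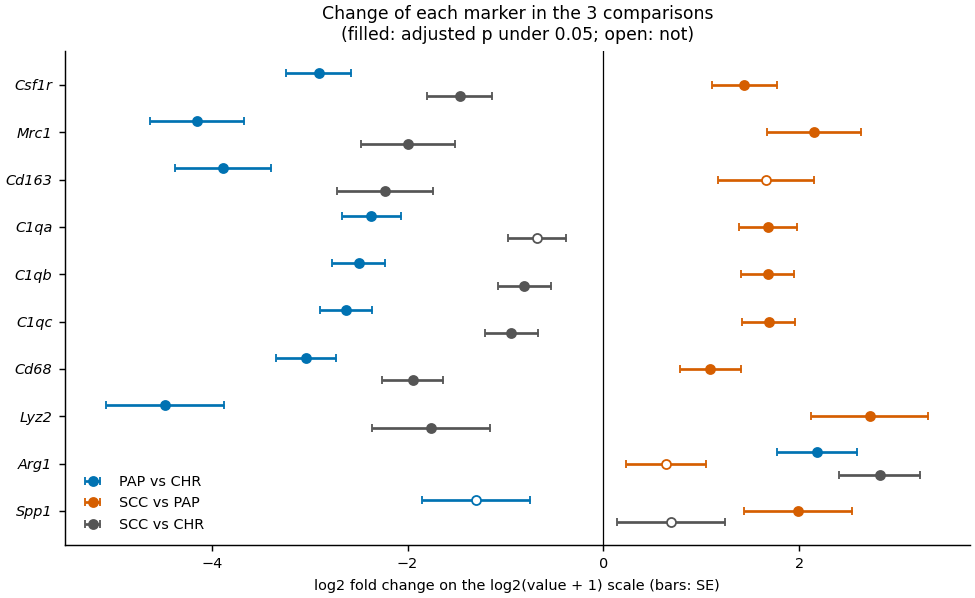
Log2 fold change of each marker on the log2(value + 1) scale of the deposited values in the 3 comparisons (bars, SE of the limma fit over 18 libraries). Filled points passed the adjusted p of 0.05, and the points for papilloma against irradiated skin run from -4.48 for Lyz2 to 2.18 for Arg1.

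The comparison of carcinoma with papilloma asks what separates the malignant lesion from the precancerous one, and all 10 markers had a higher mean in carcinoma. The rise passed the test for 8 of the 10, with 0 lower, where 8.75% of all genes were called higher and 1.1% lower. The median log2 fold change of the 10 was 1.68, against -0.02 for all genes. The groups overlapped for all 10 genes. These calls depended on single mice and on the model. With only the papillomas and carcinomas in the fit, limma called 0 genes and 0 markers, with all 10 markers at an unadjusted p under 0.05, and limma-voom on recovered reads of all 18 libraries called 9. Without mouse 7, and likewise without mouse 8, limma called 0 of the 14521 genes and so 0 markers, with 9 markers at an unadjusted p under 0.05 in each case, and without mouse 3 it called 3 markers.

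Csf1r ranged from 745 to 7429 normalised reads in carcinoma (median 2258) and was higher than in papilloma in 6 of 6 mice, by 1.44 ± 0.33 on the log2 scale (limma adjusted p = 0.0192, or 0.0637 without the mouse as a block). Mrc1 rose by 2.15 ± 0.48 (limma adjusted p = 0.0177), to between 803 and 13905 (median 2774). Cd163, at 23.3 to 1633 (median 245), was also higher in 6 of 6 mice, but its change of 1.66 ± 0.49 missed the threshold (limma adjusted p = 0.0512). The C1q chains rose by 1.68 ± 0.30 (C1qa), 1.68 ± 0.27 (C1qb) and 1.69 ± 0.27 (C1qc), with limma adjusted p-values of 0.01, 0.00917 and 0.00917. C1qa then stood between 1211 and 7170 (median 2496).

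Cd68 rose by 1.09 ± 0.31 (limma adjusted p = 0.0419, or 0.0523 without the block), to between 350 and 2201 (median 798), and was higher in 5 of 6 mice, the exception being mouse 9. Lyz2 rose by 2.72 ± 0.60 (limma adjusted p = 0.0177), to between 1371 and 27029 (median 7175). Of the activated markers, Spp1 rose by 1.99 ± 0.55 (limma adjusted p = 0.0386) and was higher in 6 of 6 mice, at 566 to 12168 normalised reads (median 1302). Arg1, at 1528 to 7672 (median 3045), differed from papilloma by 0.64 ± 0.41 (limma adjusted p = 0.376) and was higher in 5 of 6 mice.

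Set against irradiated skin, which shares its libraries with the first comparison, carcinoma held less of the resident and general markers and more Arg1. Of the 10 markers, 7 fell and 1 rose, where 22.7% of all genes fell and 15.8% rose, and the median of the 10 was -1.20 on the log2 scale against -0.02 for all genes. Csf1r fell by 1.47 ± 0.33 on the log2 scale (limma adjusted p = 0.00399) and Cd68 by 1.95 ± 0.31 (0.000474), both in 6 of 6 mice. Mrc1 (-2.0 ± 0.48, limma adjusted p = 0.00579) and Cd163 (-2.23 ± 0.49, 0.00368) were lower in 5 of 6 mice, with mouse 7 as the exception. Lyz2 (-1.76 ± 0.60, limma adjusted p = 0.0342), C1qc (-0.94 ± 0.27, 0.0164) and C1qb (-0.81 ± 0.27, 0.0321) passed, but C1qa (-0.68 ± 0.30, 0.0852) did not. Without the mouse as a block, the adjusted p was 0.073 for C1qc and 0.104 for C1qb. Without mouse 3 or without mouse 9, 5 markers were called, 4 of them lower.

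Arg1 was the marker with the clearest increase. It was 8.29-fold higher in carcinoma than in irradiated skin by the geometric means, and the log2 fold change was 2.82 ± 0.41 (limma adjusted p = 0.000271). The lowest carcinoma (1528) lay above the highest irradiated skin (677), as was the case for 8.57% of all genes in that direction. Spp1 was higher in 3 of 6 mice and lower in the other 3, with a log2 fold change of 0.69 ± 0.55 (limma adjusted p = 0.343).

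Levels were next related to Csf1r in the same library, to see which markers moved differently from the receptor that most macrophages carry. These are ratios of counts, not corrected for gene length, so that their change between tissues is what can be read, and they were not tested. Arg1 amounted to 5.45% of Csf1r in irradiated skin, 235% in papilloma and 128% in carcinoma (geometric means, n = 6). The within-mouse log2 difference of this ratio was 5.43 ± 1.33 (SD) from skin to papilloma and 4.56 ± 1.08 from skin to carcinoma, up in 6 of 6 mice in both. Spp1 amounted to 13.8%, 41.5% and 64.5% of Csf1r, and its ratio was up in 5 of 6 mice in papilloma and in 6 of 6 in carcinoma (2.23 ± 0.88 against skin).

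The resident and general markers did not stay in proportion to one another. From skin to papilloma, the ratio to Csf1r changed by -1.28 ± 0.88 for Mrc1, -2.49 ± 1.53 for Cd163 and -1.59 ± 1.02 for Lyz2 on the log2 scale, each down in 6 of 6 mice. The ratio of C1qa to Csf1r changed by 0.55 ± 0.35, up in 6 of 6 mice. Those of C1qb (0.31 ± 0.34) and C1qc (0.20 ± 0.32) stayed within the spread, each up in 5 of 6. The ratio of Cd68 changed by -0.24 ± 0.83 (up in 2 of 6), with the papilloma of mouse 10 apart. Cd68 was 147% of Csf1r in that papilloma and 29.3 to 32.9% in the others. Mrc1 was thus 166% of Csf1r in skin, 68% in papilloma and 114% in carcinoma, and Cd163 was 19%, 3.37% and 7.7%. C1qa was 66.4%, 97.3% and 116% of Csf1r in the same order, and C1qc 48.7%, 55.9% and 70.1%.

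The same ratios were formed to Ptprc (CD45), which all leukocytes carry and which itself went from a median of 6281 in irradiated skin to 1256 in papilloma and 3000 in carcinoma. From skin to papilloma the C1q chains kept their proportion to Ptprc within the spread, with log2 differences of 0.05 ± 0.42 (C1qa), -0.19 ± 0.37 (C1qb) and -0.30 ± 0.38 (C1qc). Csf1r lost against Ptprc in 6 of 6 mice (-0.50 ± 0.20). Mrc1 (-1.78 ± 0.83), Cd163 (-2.99 ± 1.52) and Lyz2 (-2.09 ± 1.04) lost more, also in 6 of 6, and Arg1 gained 4.93 ± 1.47. Cd68 changed by -0.74 ± 0.72 against Ptprc, up in 1 of 6 mice.

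**Figure D3:**
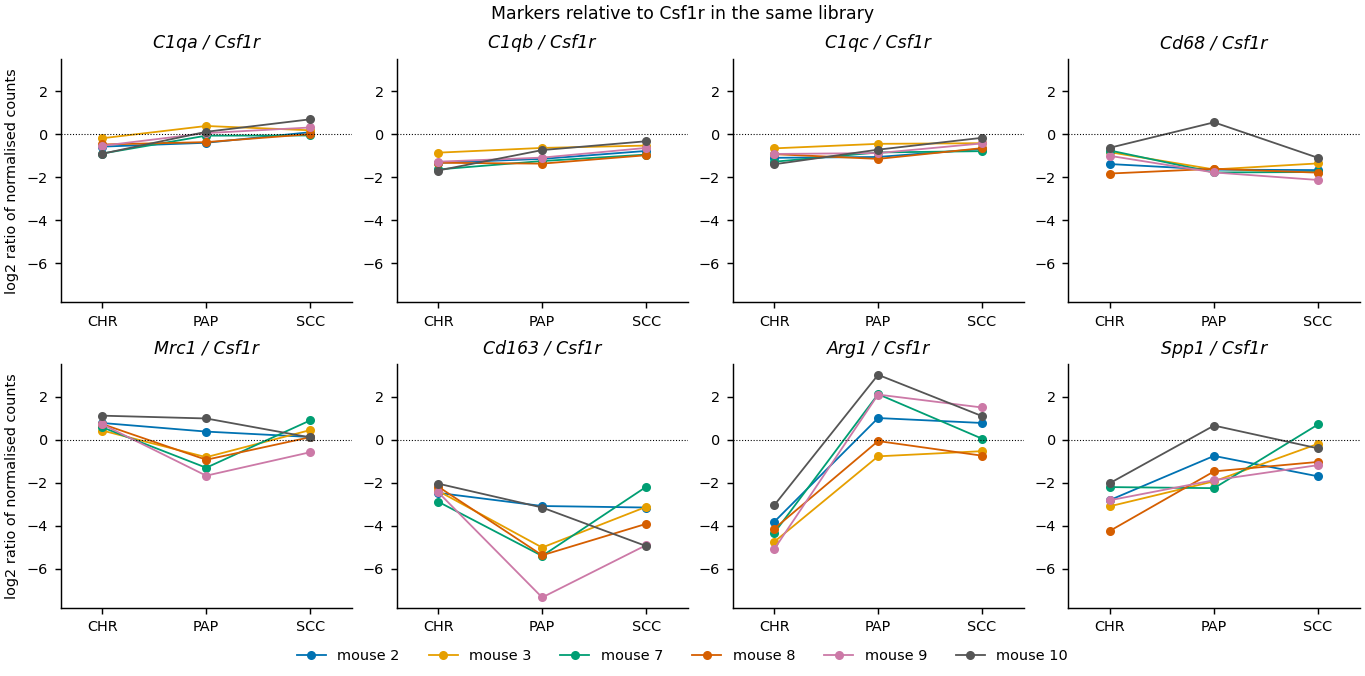
Log2 ratio of the normalised count of 8 markers to that of Csf1r in the same library (dotted line, equal counts), for irradiated skin (CHR), papilloma (PAP) and carcinoma (SCC), with 1 line per mouse. From CHR to PAP the C1qa ratio is up and the Mrc1 and Cd163 ratios are down in all 6 mice, and Arg1 climbs from between -5.09 and -3.05 in CHR to between -0.77 and 3.02 in PAP.

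The level of Csf1r differed by a factor of 1.59 between the lowest and the highest mouse in irradiated skin, by 9.71 in papilloma and by 9.97 in carcinoma. Single lesions set the latter spans. The papilloma of mouse 10 held 175 normalised reads and the other 5 papillomas 862 to 1700, and the carcinomas ran from 745 to 3566 without mouse 7 and from 1964 to 7429 without mouse 10. Pearson's r on log2(value + 1) after removal of the group means, over the 18 libraries of 6 mice, ran from 0.55 to 0.99 for the 28 pairs among the 8 resident and general markers, and was 0.99 for each pair of C1q chains. It ran from 0.49 to 0.88 for Spp1 with those 8 genes, a range that overlaps theirs, and from 0.24 to 0.42 for Arg1 with them. For Arg1 with Spp1 it was 0.31. These coefficients describe libraries that share mice and cell composition.

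The genes whose pattern was most like that of a marker, by Pearson's r over the 18 libraries, were listed for 4 markers, 5 genes each. For Csf1r they were Evi2a (0.994), Rassf2 (0.99), Nrros (0.989), Lrmp (0.988) and Gab2 (0.988). For Mrc1 they were Cd163 (0.987), Pi16 (0.986), F13a1 (0.983), Ccl9 (0.982) and Serpina3n (0.981). For Arg1 the likeness was lower, with Ckap4 (0.904), Ccdc41 (0.900), Haus4 (0.885), Ostc (0.863) and Csnk1g2 (0.845), and their own rises from skin to papilloma, 0.31 to 0.50 on the log2 scale, were smaller than the 2.18 of Arg1. For Spp1 they were Ctgf (0.907), Rnf149 (0.906), Reg3g (0.904), Glycam1 (0.895) and Timp1 (0.893).

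A few lesions set the extremes. The carcinoma of mouse 7 was the highest of the 6 carcinomas for 10 of 10 markers. It held 12168 normalised reads of Spp1, 14.1 times the median of the other 5 carcinomas, and 6.89 times that median for Cd163, 5.51 times for Mrc1 and 4.59 times for Lyz2. Set against the irradiated skin of the same mouse, 7 of the 10 markers were higher in it, from 110% for Mrc1 and 124 to 158% for the C1q chains to 663% for Spp1 and 1850% for Arg1, and Lyz2 (92%), Csf1r (88.2%) and Cd68 (44%) were lower. In that library Ptprc was 2.8 times the median of the other 5, and the summed level of 8 keratinocyte markers, 205923, was the lowest of the 6 carcinomas (highest 794848). Their part in the result was not tested. Without this library limma called 5 markers higher in carcinoma than in papilloma, against 8 with it.

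The carcinoma of mouse 10 was the lowest for 9 of 10 markers, all but Arg1, and the papilloma of mouse 10 was the lowest for 7. In that papilloma the summed level of 6 leukocyte markers was 898, the lowest of the 18 libraries, where the other papillomas reached up to 6018. The papilloma of mouse 9 was the highest papilloma for 7 markers, Arg1 among them, and at the same time the lowest for Cd163. The papilloma of mouse 2 was the highest for Mrc1, Cd163 and Spp1.

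Other macrophage genes were counted from lists chosen by function, to be read against the shares of all genes, which were 23.3% higher and 29.3% lower in papilloma against skin, 8.75% and 1.1% in carcinoma against papilloma, and 15.8% and 22.7% in carcinoma against skin. Of 21 further identity genes, 0 rose and 15 fell in papilloma (median -1.68 on the log2 scale), with the largest decreases in F13a1 (-4.77 ± 0.49), a coagulation factor subunit made by dermal macrophages, and the lectin Clec10a (-3.99 ± 0.34). Between papilloma and carcinoma 9 of the 21 rose and 0 fell, F13a1 by 2.12 ± 0.49 and the scavenger receptor Msr1 by 1.86 ± 0.27 the most. Against irradiated skin 11 of the 21 were lower in carcinoma and 0 higher. Spi1, which encodes PU.1 and is one of the 21, was picked out after its values were seen, because of the motif above, and fell in papilloma by 1.99 ± 0.27 on the log2 scale (limma adjusted p = 5.95e-05).

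Of 21 further genes of activated macrophages, 3 rose and 9 fell in papilloma, the first a smaller share than that of all genes. The largest increases were those of Ptgs2 (3.32 ± 0.55), the inducible cyclooxygenase, and Vegfa (2.81 ± 0.20), the angiogenic growth factor, both of which keratinocytes also make. The largest decreases were those of Gpnmb (-5.92 ± 0.67), which pigment cells and lipid-laden macrophages carry, and Retnla (-4.0 ± 0.40), a secreted protein of alternatively activated macrophages. From papilloma to carcinoma the macrophage elastase Mmp12 (1.7 ± 0.46) and the lipid receptor Trem2 (1.61 ± 0.35) rose and Vegfa fell by 1.09 ± 0.20. In carcinoma against skin, 4 were higher and 8 lower.

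Of 10 genes for the growth and recruitment of macrophages, 7 fell in papilloma and the other 3 did not pass the test, the decreases being led by Ccr2 (-2.67 ± 0.24), the chemokine receptor of monocytes, and Csf2rb (-2.01 ± 0.29), a subunit of the GM-CSF receptor. From papilloma to carcinoma Ccr2 rose by 1.42 ± 0.24 and its ligand Ccl12 by 1.02 ± 0.21, with the other 8 not passing the test. Against skin, 5 of the 10 were lower in carcinoma, and the other 5 did not pass the test.

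Genes that work with C1q fell along with it. All 8 listed partners were lower in papilloma, among them C4b (-5.69 ± 0.55) and C3 (-4.98 ± 0.55), complement components downstream of C1, whose decreases were larger on the log2 scale than those of the C1q chains. Fibroblast markers ran from -5.51 to -0.53 (median -2.74) in the same comparison, and the cells that made the partner RNAs were not tested. In carcinoma against papilloma 3 of the 8 rose, C4b (2.38 ± 0.55) and the C1 inhibitor Serping1 (2.32 ± 0.40) the most, and all 8 were below irradiated skin. Of 10 lysosome and scavenger genes, 9 fell in papilloma, with the fatty acid receptor Cd36 (-6.38 ± 0.62) and the cathepsin Ctss (-3.27 ± 0.39) foremost, and those same genes were the 2 that rose from papilloma to carcinoma (2.55 ± 0.62 and 1.84 ± 0.39). In papilloma against skin the medians of the adipocyte, skeletal muscle and endothelial markers counted below were -4.11, -7.03 and -0.38. Which cells the lysosome and scavenger RNAs came from was not tested.

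Around Arg1, 7 genes of arginine transport and polyamine synthesis gave 3 that rose and 2 that fell in papilloma, the latter a share like that of all genes. Odc1, which turns ornithine into putrescine, rose by 2.07 ± 0.28 on the log2 scale, and the arginine transporter Slc7a1 rose by 1.52 ± 0.28. The related transporter Slc7a2 fell by 2.26 ± 0.31, and Sms, spermine synthase, fell by 0.42 ± 0.11. Carcinoma against skin gave 3 higher and 2 lower, with Odc1 at 1.71 ± 0.28 and Slc7a1 at 1.55 ± 0.28, and in carcinoma against papilloma none of the 7 passed the test, Slc7a2 coming nearest (1.06 ± 0.31, limma adjusted p = 0.0502).

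Of 8 receptors for Spp1, 4 rose and 3 fell in papilloma, where 23.3% of all genes rose and 29.3% fell. Cd44 rose by 0.77 ± 0.16 and Itgb1 by 0.62 ± 0.16, and the integrin chains Itga4 (-2.21 ± 0.22) and Itga9 (-1.41 ± 0.21) fell. From papilloma to carcinoma Itga9 (1.15 ± 0.21) and Itga4 (1.0 ± 0.22) rose, and the other 6 did not pass the test.

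Markers of other leukocytes were counted in the same way. The 6 leukocyte markers all fell in papilloma, from a summed level of 15888 to 30449 in irradiated skin to 898 to 6018, and reached 3136 to 21030 in carcinoma, where 5 of 6 rose against papilloma. All 8 dendritic and Langerhans cell markers fell in papilloma (summed level 4766 to 12370 against 147 to 1788), as did 7 of 7 mast cell markers (6208 to 11625 against 121 to 2093) and 6 of 7 T cell markers (991 to 2007 against 195 to 530). Of 8 neutrophil markers, 2 fell (689 to 1236 against 198 to 822). Among those not called, Camp (mean 1.91 normalised reads in skin), Ngp (4.93) and Ltf (17.1) were near the floor, where the log2 scale compresses changes. Cxcr2 (mean 306 in skin) was not near it, and did not pass the test either. From papilloma to carcinoma limma called 3 of 7 mast cell markers and 1 of 7 T cell markers higher. It called 0 of 8 dendritic and 0 of 8 neutrophil markers, with 4 and 2 at an unadjusted p under 0.05, and limma-voom on recovered reads called 2 and 0.

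In papilloma 7 of 7 skeletal muscle markers fell, from a summed level of 371690 to 557582 in irradiated skin to 156 to 27745, and in carcinoma the sum was 371 to 186852. Of 8 fibroblast markers 7 fell in papilloma (138404 to 307286 against 4822 to 161063), and the carcinomas spanned 17255 to 496615. Of 6 adipocyte markers 5 fell, and of 6 endothelial markers 3 fell and 1 rose. Keratinocyte markers went the other way, with 6 of 8 higher and 1 lower in papilloma (374288 to 733682 against 625397 to 1301655), led by Krt6a (2.15 ± 0.33) and Krt16 (1.79 ± 0.51), keratins of proliferating epidermis. From papilloma to carcinoma 6 of 7 muscle, 3 of 8 fibroblast and 2 of 6 endothelial markers rose, and limma called 0 of 6 adipocyte markers (4 at an unadjusted p under 0.05, 3 by limma-voom). No marker of these lists was at 0 in all libraries of a group. Their part in the changes of the macrophage markers, and the part of keratinocytes in the rise of Arg1, was not tested.

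**Figure D4:**
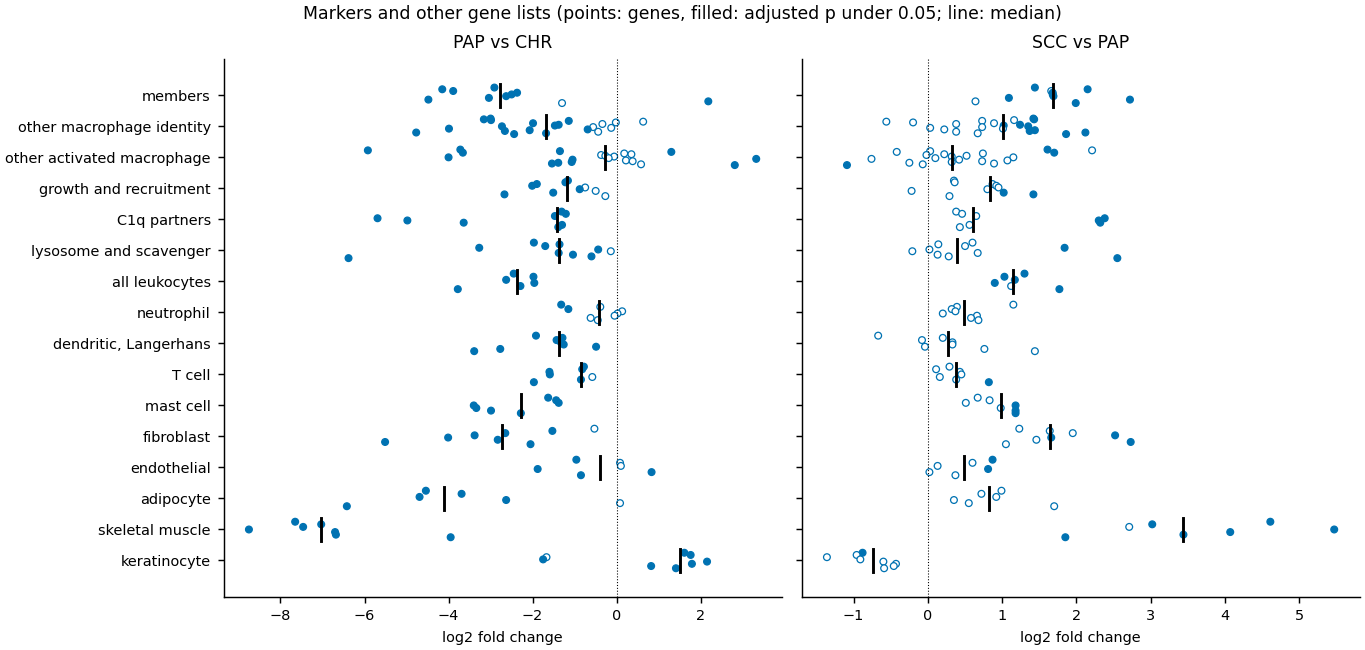
Log2 fold change of the 10 markers (top row) and of the genes of the other lists, for papilloma against irradiated skin (left) and carcinoma against papilloma (right), with 1 point per gene, filled where the adjusted p was under 0.05, and a line at the median of each list. The medians of the markers are -2.77 and 1.68, those of skeletal muscle -7.03 and 3.44, and those of keratinocyte genes 1.51 and -0.74.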

How the data were processed

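Groups and mouse numbers were taken from the sample titles, and all 18 columns of the deposited table were mapped to a sample. The authors aligned mRNA reads to mm10 with MOSAIK, counted them per gene with HTSeq, divided by scaling factors and applied a variance-stabilizing transformation. Their methods also name a scaling of batch medians, of which the steps of the low values showed no trace. The deposited values are thus whole-number scores on a linear scale, on which 0 reads appear as 39. Annotation release, software versions and strand setting are not given in the sources used here. The rule by which low genes were removed is not given either, and the smallest row maximum was 57.

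Of 14542 entries, 21 without a symbol (at most 0.241% of the reads of a library) were left out. The transformation was inverted with a fitted zero level of 39.13, which turned 98.3% of values, and 100% of those under 100, into whole reads, with size factors of 0.835 to 1.18. Depth was 15.4 to 21.0 M reads (median 18.9 M). No low-value filter was applied, so all 10 markers were tested. Over 153 pairs of libraries, the share of equal values reached 2.23%, so that no library was a copy of another.

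All 18 libraries entered 1 fit in limma 3.58.1 under R 4.3.3, of log2(value + 1) on group and mouse, the mouse being a fixed block, with Benjamini-Hochberg adjustment over 14521 genes at 0.05. Fold changes are on that scale, which understates those of low genes. The script was tested on simulated data. The block rests on the labels, since samples of a number came from 1 animal. Deviations from the group means correlated with a median of 0.10 (-0.24 to 0.51) over 18 pairs of samples of the same mouse and of 0.00 (-0.48 to 0.36) over 90 pairs of different mice in different groups. Alternatives were no block, a random block, the recovered counts, limma-voom on recovered reads, a pseudocount of 10, quantile normalization, a mean of at least 10 reads, only the groups compared, and each mouse left out. The carcinoma of mouse 7 and the papilloma of mouse 10 were left out as alternatives chosen after seeing the data.

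All markers are named. Of other lists, counts are given and, per comparison, the 2 genes with the largest change among those called in each direction. Named outside this rule were Spi1, Slc7a2 in carcinoma against papilloma, and the neutrophil genes Camp, Ngp, Ltf and Cxcr2. The 5 genes most like Csf1r, Mrc1, Arg1 and Spp1 were taken by Pearson's r. The markers, lists and rules were chosen with earlier results of these data known. Adgre1 and Chil3 were found under the older symbols Emr1 and Chi3l3. Positions are from GENCODE M21 (GRCm38). Promoters are from RefSeq (GRCm38.p6). Figures were drawn with matplotlib 3.10.9 in Python 3.11.15.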

Additional observations from a re-analysis of the deposited data

Results flagged for a closer look

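In each of 30 groups of 6 samples (10 markers in 3 tissues), the highest and the lowest value were examined for a gap to the nearest other value that exceeded, as a share of the whole range, Dixon's 95% critical value. Such a gap was found in 7 of the 30 groups, each time above the other values. The gaps were taken on normalised counts, for which the 5% that chance gives with normally distributed values need not hold. Gaps on the log2 scale were not examined. The groups are not independent, since the markers share libraries. The carcinoma of mouse 7 stood apart for 5 markers. It held 13905 normalised reads of Mrc1 where the next carcinoma held 3870, 1633 of Cd163 where the next held 259, 2201 of Cd68 where the next held 1038, 27029 of Lyz2 where the next held 8807, and 12168 of Spp1 where the next held 1937. The papilloma of mouse 2 stood apart for the endocytic receptors, with 1473 normalised reads of Mrc1 (next 627) and 133 of Cd163 (next 33.1). The summed level of 7 skeletal muscle markers in that papilloma was 27745, the highest of the 6 papillomas, whose median was 667. Its part in the result was not tested.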

How the results depend on the processing

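No marker changed direction in any alternative. Of 480 values (10 markers, 3 comparisons, 16 alternatives) 415 kept their side of the threshold, 55 lost the call and 10 gained one. In papilloma against irradiated skin no call was lost, and Spp1 gained it in 4 of 16. In carcinoma against papilloma 39 of 160 values lost the call, so that these calls are the least secure. In the other 2 comparisons the fit without the block of paired mice moved no count of calls by over 1.5 times, with 9 markers called in papilloma and 6 in carcinoma.

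In carcinoma against papilloma, limma called 1430 genes and 8 markers with the block. Without the replicate block it called 810 genes and 6 markers, Csf1r (adjusted p = 0.0637) and Cd68 (0.0523) losing the call. With only these groups in the fit it called 0 genes and 0 markers (2830 genes and 10 markers at an unadjusted p under 0.05, lowest adjusted p 0.0512), whereas limma-voom on recovered reads called 1741 genes and 9 markers. Leaving out 1 mouse gave 0 to 1995 genes and 0 to 9 markers. The count was 0 without mouse 7 (2450 genes at an unadjusted p under 0.05) and without mouse 8 (2594), and without mouse 3 it was 471 genes and 3 markers. Without the carcinoma of mouse 7 it was 454 genes and 5 markers. Leaving out 1 mouse gave 6545 to 7319 genes and 9 to 9 markers in papilloma against skin, and 4214 to 5482 genes and 5 to 9 markers in carcinoma against skin (5583 and 8 with all mice). There, 8 of 16 alternatives called C1qb, 13 C1qc, 11 Lyz2 and 2 C1qa.

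Quantile normalization shifted the median of all genes by 0.16 on the log2 scale in papilloma against skin, and 5339 of 8550 calls were then higher against 3388 of 7639 in the main scaling. In carcinoma against skin it gave 3667 of 6347 against 2291 of 5583, and in carcinoma against papilloma 709 of 1035 against 1270 of 1430. Depth limited Cd163 most, which rested on 8 to 157 reads per papilloma.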

Other observations

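Of 4 genes known from osteoclasts and bone matrix, a setting in which Spp1 is abundant, Mmp9 was higher in papilloma than in irradiated skin, by 2.72 on the log2 scale, and Ctsk, a cathepsin of osteoclasts and fibroblasts, fell by 3.77. The other 2 did not pass the test. From papilloma to carcinoma Ctsk rose by 1.78. In carcinoma against skin Mmp9 was higher by 2.60, and Ctsk fell by 1.99.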
